A study of Mus musculus with 4 samples.

Results

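Transcription from stretches of the mouse autosomes that carry no gene name was read in 3T3-L1 adipocytes by 15604 of the 55681 non-control probes of an Agilent mouse array. These probes were chosen by their name alone, which is an interval on genome build mm9 followed by F or R, and no measured value entered the choice. The 15604 probes cover 4429 of the 34797 named targets of the array, and each of these regions is 1 interval with 1 letter. There were 2231 regions under F and 2198 under R, from 3387 intervals. Of the intervals, 1189 were on the array under F only, 1156 under R only and 1042 under both letters. Intervals run from 62 to 7128487 bases with a median of 10745, and a region has 1 to 10 probes with a median of 3. Because 2034 regions overlap another region on the same strand, regions are not independent of each other.

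The cells are 3T3-L1, a mouse fibroblast line that differentiates into adipocytes in culture, and the series concerns adiponectin, a hormone that adipocytes secrete. Once differentiated, the cells were kept for 7 days with PBS as the vehicle group, with 25 uM of the soy isoflavone daidzein, with 100 ug/ml of PT (pig testis extract), or with both agents at these doses. Total RNA of each of these 4 groups was read on 1 single-colour array of 60-base probes, and the labels give no replicate cultures. If the file names give the slide position, PBS and daidzein lay in row 1 of the slide and PT and daidzein+PT in row 2. On that reading PT and slide row cannot be told apart, and each daidzein array lay in the column next to the array it is compared with. Among markers of adipocytes and other cell types, 10 of 11 adipocyte genes and 8 of 8 preadipocyte or fibroblast genes were well above background on every array. Leptin was below it on all 4. The same held for 3 of 5 macrophage genes (Emr1 and Ptprc below), 2 of 4 endothelial genes (Cdh5 and Tek below), 1 of 4 muscle genes (Myod1, Myog and Ckm below) and 2 of the 7 testis genes on the array. The summed signal of the adipocyte genes was 36880 on the PBS array, 231300 with daidzein, 88930 with PT and 345700 with both. That of the preadipocyte or fibroblast genes was 264700, 228500, 295000 and 212600 in the same order. The part of these differences in the values below was not tested.

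Long intergenic non-coding RNAs are transcribed by RNA polymerase II between protein-coding genes, and most are capped, spliced and polyadenylated but not translated. They are usually less abundant than messenger RNAs and more restricted to single cell types, and several act on chromatin, on neighbouring genes or on splicing. In adipocytes some are switched on during differentiation and are needed for it. Their loci are often described first as transcribed intervals, before the strand or the ends of the RNA are known, which is why a design can carry probes for both strands of 1 interval.

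The letter gives the strand that a probe reads. All 7859 positioned F probes were listed on ascending and all 7627 positioned R probes on descending coordinates (118 probes had no position), and 21814 of 21952 probes of genes with 1 known strand, 99.4%, were listed in the direction of their gene. In 101 cases an F probe and an R probe are exact reverse complements, so both ask about the same 60 bases and differ only in strand. The 3 pairs printed here, read from the array's probe sequences, are the brightest of those read under F alone, under R alone and under both. Capitals mark the first 20 bases of the F probe and the same bases on the other strand at the end of the R probe.
chr12:82495575-82516300_F: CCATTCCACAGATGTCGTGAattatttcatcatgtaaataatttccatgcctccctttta
chr12:82495575-82516300_R: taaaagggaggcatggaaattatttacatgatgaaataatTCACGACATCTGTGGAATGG
chr2:65240793-65292293_F: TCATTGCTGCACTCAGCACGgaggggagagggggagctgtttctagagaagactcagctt
chr2:65240793-65292293_R: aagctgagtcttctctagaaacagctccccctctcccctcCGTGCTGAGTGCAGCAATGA
chr8:40100925-40196350_F: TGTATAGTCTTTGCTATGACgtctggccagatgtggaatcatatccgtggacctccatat
chr8:40100925-40196350_R: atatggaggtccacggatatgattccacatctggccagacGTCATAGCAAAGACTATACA

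At chr12:82495575-82516300 the F probe gave signals of 10250 (PBS), 12200 (daidzein), 10815 (PT) and 11392 (both agents), an order kept for all signals that follow. The R probe gave 7.66, 10.6, 9.65 and 4.1. The first was well above background on all 4 arrays and the second on none. At chr2:65240793-65292293 it was the R probe that was read, with 5726, 5782, 5628 and 5104, and the F probe gave 5.15, 8.68, 4.14 and 11.6. At chr8:40100925-40196350 both strands were read on all 4 arrays, F at 3891, 3550, 4003 and 2965 and R at 89.8, 84.2, 92.5 and 74.3. Of the 101 pairs, 20 had the F probe alone well above background on all 4 arrays, 19 the R probe alone, 7 both and 55 neither. Thus 39 of the 46 pairs with a read probe, 84.8%, were read on 1 strand only, and in 33 of these 39 the opposite probe was above background on no array. The median of the lowest signal of the read probes was 59.5, and that of the highest signal of their unread partners was 10.6.

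**Figure D1:**
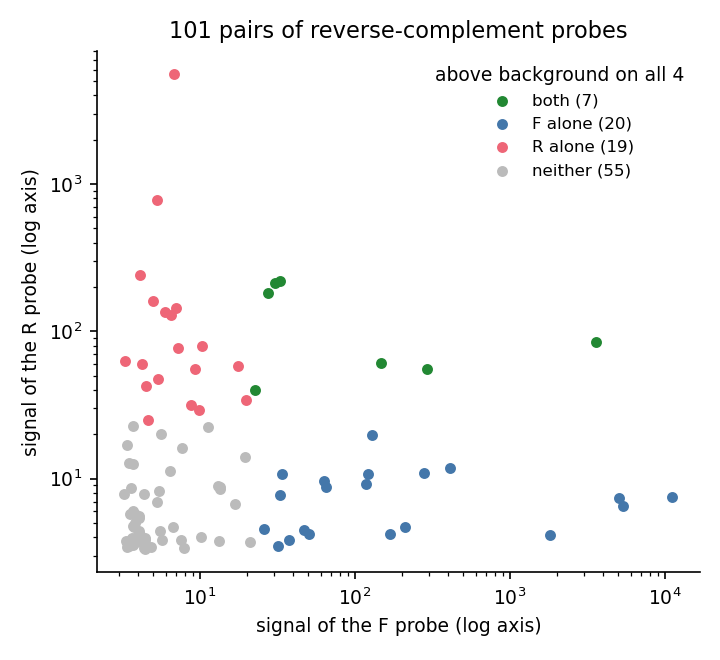
Geometric mean signal over the 4 arrays (log axes) of the F probe against that of the R probe for the 101 pairs of exact reverse complements. In 20 pairs F alone was read (blue) and in 19 R alone (red), 7 pairs (green) were read on both strands and 55 (grey) on neither. Signals of different probes are not compared in size.

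Detection was lower for the regions than for the rest of the array. A probe counted as read when the scanner software had set its flag for a signal well above background. On the PBS array 34.3% of the region probes were read (95% exact binomial interval 33.5 to 35.0, counting error only), against 49.8% of all probes and 55.8% of the other probes. With daidzein the share was 34.7%, with PT 34.9% and with both 32.2%, where all probes gave 50.3%, 50.5% and 48.8%. Of 308 negative control spots, 2 to 7 per array carried the same flag. No region probe was saturated, the median signal of read probes lay between 66.2 and 77.4, and single probes reached 173054.

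Most region probes were either read on every array or on none. On no array 9012 probes were read, on 1 array 1245, on 2 arrays 472, on 3 arrays 444 and on all 4 arrays 4431, which is 28.4% of them against 45.8% of all probes. Probes read on a single array numbered 243 with PBS, 289 with daidzein, 398 with PT and 315 with both agents, and were not compared with the other probes. Of the 444 probes missing on a single array, 283 were missing on daidzein+PT, the array with the lowest 75th percentile of signal (360 against 372 to 418).

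Base composition moved with detection. Of region probes below 30% G + C, 12.3% were read on all 4 arrays, rising over 25.3%, 25.5% and 36.2% to 61.6% of the 591 probes at 60% or more. The other probes gave 40.4% in the lowest and 68.2% in the highest class, so the gap was widest among A + T rich probes. Of the 937 regions with intervals under 1000 bases 35.4% were read, while the longer classes lay between 51.2% and 53.4%. Per probe the shares were closer, 23.3% in the short class and 30.9%, 28.9% and 25.5% in the longer ones. Regions with more probes were read more often: none was read in 66.8% of regions with 1 probe and 18.9% of those with 10. How much of the gap by length follows probe number was not tested. By chromosome the share of regions read ran from 37.6% on chromosome 13 to 59.8% on chromosome 2. The hexamer AATAAA, the usual polyadenylation signal and searched here on the probe's strand, occurred in 3.92% of region probes and 12.5% of the other probes, and its complement TTTATT in 3.08% and 4.0%. Region probes with AATAAA were read on all 4 arrays in 31.3% of 611 cases, those without in 28.3%.

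**Figure D2:**
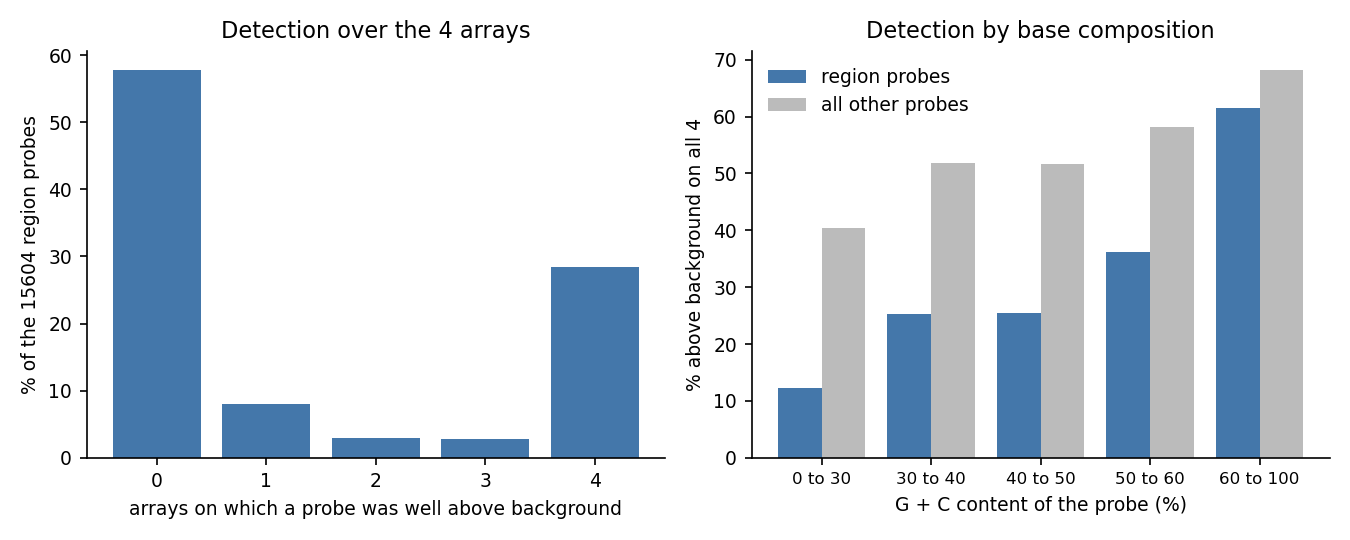
Left, percent of the 15604 region probes by the number of arrays on which they were well above background. Right, percent of region probes (blue) and of all other probes (grey) read on all 4 arrays, by G + C content. The ends of the left distribution hold 57.8% (no array) and 28.4% (all 4), and the right bars rise from 12.3% to 61.6% for the regions.

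At least 1 probe was read on all 4 arrays in 2167 of the 4429 regions (48.9%), at least 2 probes in 1105 and at least 3 in 643. Probes of 1 region were often split. Of the 1726 regions with 3 probes, 951 had none read on all 4 arrays, 354 had 1, 162 had 2 and 259 had all 3. Probes of a region do not sample the whole interval: the centres of neighbouring probes lay a median of 81 bases apart, and the probes of a region spanned a median of 12.8% of its interval. Of neighbouring probes, 1.56% overlapped.

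Both letters were read on all 4 arrays in 359 of the 1042 intervals that carry both, F alone in 207, R alone in 228 and neither in 248. F was read in 61.2% of the intervals where R was and in 45.5% of those where R was not. Some intervals are not free of annotated genes. A probe of a named gene lay inside the interval on the same strand for 501 regions, of which 62.7% were read on all 4 arrays, and on the other strand only for 291, of which 55.7% were. Of the 3637 regions with no named gene probe inside, 46.5% were read. A further 74 region probes have exactly the sequence of a probe under another name. In 73 of these pairs either both probes or neither were read on all 4 arrays. Pairs not read on all 4 could still differ in the number of arrays read, in one case 1 for the region probe against 3 for its match. In the 33 pairs read on all 4 the daidzein difference differed by a median of 0.082 log2.

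Differences between arrays were taken on the log2 scale after each array's 75th percentile had been subtracted, as the mean over the probes of a region read on both arrays. For daidzein there are 2 pairs without a common array, daidzein over PBS and daidzein+PT over PT, and for PT the pairs are PT over PBS and daidzein+PT over daidzein. With 1 array per group a pair has no test, so regions at 2-fold or more were counted beside the same count over all genes and regions read. Daidzein was at least 2-fold higher than PBS in 5 of 2352 regions, where 1.07% of all targets were, and at least 2-fold lower in 6, where 0.375% were. Daidzein+PT over PT gave 30 higher (all targets 2.02%) and 33 lower (0.853%) of 2233 regions. In both daidzein pairs at once 2 of 2167 regions were higher (all targets 0.865%) and 0 were lower (all targets 0.164%). PT over PBS gave 29 higher (all targets 0.85%) and 4 lower (0.0585%) of 2301 regions. Daidzein+PT over daidzein gave 24 higher (1.01%) and 1 lower (0.0969%) of 2232, and no region was 2-fold in both PT pairs (all targets 0.142% higher and 0.00548% lower). Daidzein+PT over PBS gave 30 higher (2.41%) and 9 lower (0.563%) of 2227. The median difference over the 2167 regions lay between -0.05 and 0.01 in the 4 pairs, and that over all targets between -0.02 and 0.00.

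An additive model of both treatments, fitted with limma to the 27830 probes read on at least 2 arrays, has 1 residual degree of freedom and counts any interaction as error. At a Benjamini-Hochberg adjusted p below 0.05 it called 153 of 5346 region probes higher (background 7.66%) and 212 lower (background 6.1%) with daidzein, which is 2.86% and 3.97%. For PT it called 91 higher (background 2.42%) and 25 lower (background 0.532%). Among region probes the lower daidzein calls outnumbered the higher ones, while over all probes there were 2133 higher and 1697 lower. Fitted without a trend of the variance on signal, limma made 0 calls among the region probes in either direction for either treatment. At an unadjusted p under 0.05 that limma fit had 333 of 5346 region probes higher and 499 lower with daidzein. Over all 27830 probes it had 2242 higher and 2260 lower. For PT it had 298 of the 5346 region probes higher and 260 lower, and over all 27830 probes 1228 and 765.

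Differences of 2-fold were more frequent among dim regions. With the 2167 regions in 3 classes by signal, in the dimmest (19.6 to 58.3) the SD over regions of the difference between the 2 daidzein pairs was 0.51, and 25 of 722 were 2-fold in a daidzein pair. The values were 0.43 and 20 of 722 in the middle class, and 0.23 and 3 of 723 in the brightest.

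For probes of the same region the SD of the daidzein difference between probes of a region had a median of 0.12 log2 over 1105 regions. Across these regions the daidzein differences of the first 2 read probes correlated with Pearson's r of 0.40, where both probes share the arrays and often the dim range. F and R of 1 interval correlated with r of 0.17 for daidzein and 0.01 for PT over 359 intervals. The gap between the first read F probe and the first read R probe had a median of 0.21, against 0.14 for 2 probes of the same strand. Regions correlated with a named gene inside them on their own strand with r of 0.58 (232 regions), with one on the other strand with 0.23 (135) and with the nearest gene outside with 0.12 (1256). These correlations are across regions of the same 4 arrays, not across samples.

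Ranked by the smaller of the 2 daidzein pair differences, the highest region was chr2:136327645-136341251_F, whose 3 probes lie near its 3′ end. Its interval also holds a probe of Ankrd5, a protein with ankyrin repeats, on the same strand. The 3 probes are printed because all of them had the same order over the arrays; they hold no AATAAA, and no letters are marked.
probe 1: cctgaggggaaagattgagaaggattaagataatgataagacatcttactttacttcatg
probe 2: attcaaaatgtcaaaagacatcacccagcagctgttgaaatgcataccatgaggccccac
probe 3: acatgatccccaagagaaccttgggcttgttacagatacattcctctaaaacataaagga

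Probe 1 (chr2:136340651-136340710) gave 13.2 with PBS, not well above background, then 51.4, 27.6 and 83.3. Probe 2 (chr2:136340890-136340949) gave 73.4, 308, 169 and 477. Probe 3 (chr2:136340980-136341039) gave 77.2, 379, 221 and 660. All 3 probes had the same order, lowest with PBS, then PT, then daidzein, and highest with both. Over the 2 probes read on all 4 arrays the difference was 2.06 and 1.75 log2 in the daidzein pairs and 1.19 and 0.89 in the PT pairs. Ankrd5 itself gave 0.81 and 1.21 for daidzein and 0.16 and 0.56 for PT. The highest signal of its 2 probes was 62.0, 68.0, 58.9 and 91.3, so 0.81 is not the rise of the probe brightest with PBS. Adiponectin (Adipoq) gave 2.31 and 2.07 for daidzein and 1.08 and 0.84 for PT.

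**Figure D3:**
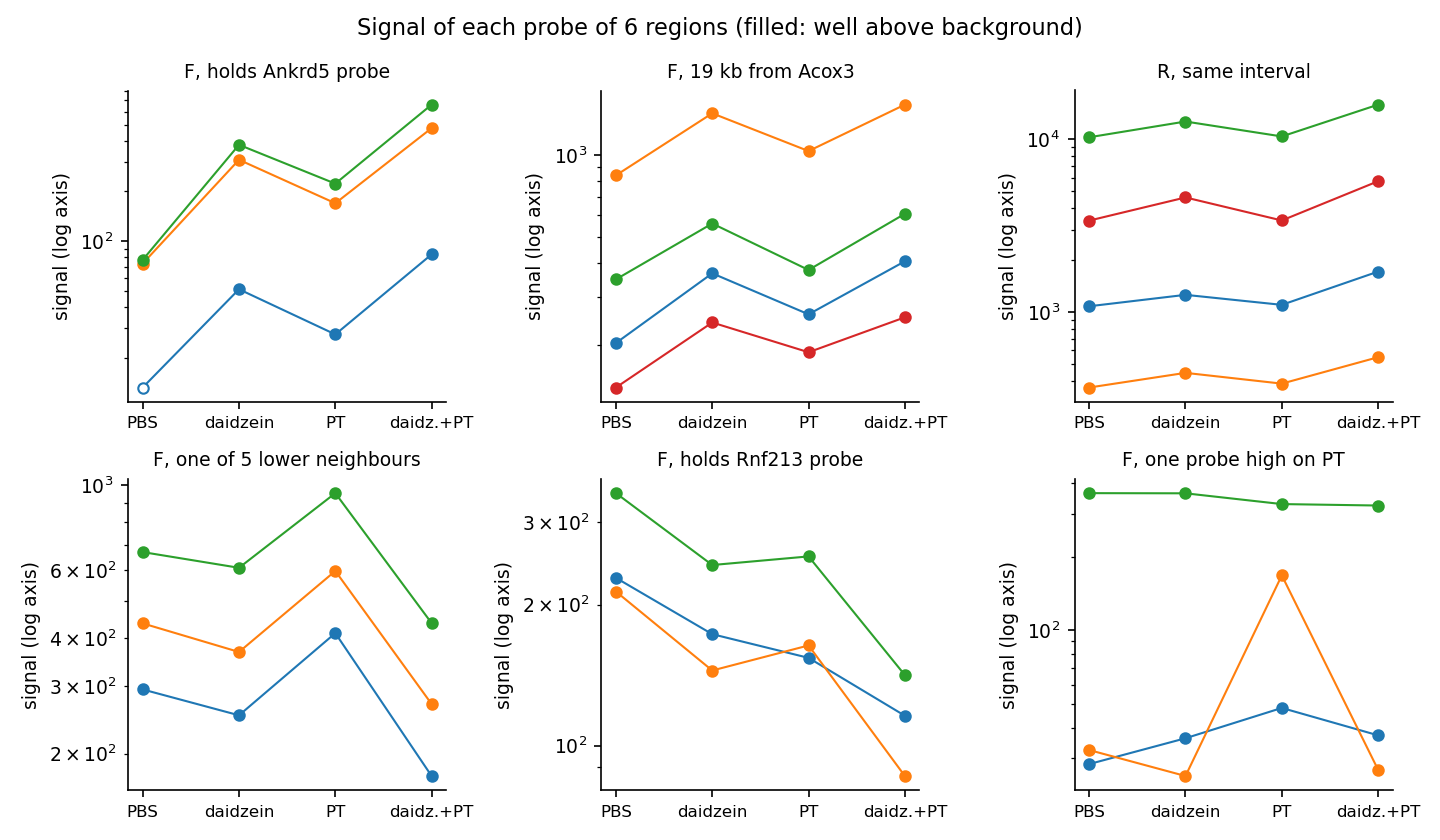
Signal of every probe (on log axes) of 6 regions on the 4 arrays, 1 line per probe, filled circles well above background. The probes of the region holding an Ankrd5 probe, of both strands of the interval near Acox3, of one of the 5 lower neighbours and of the region holding an Rnf213 probe run together, while in the last panel 1 of 3 probes reaches 168 on the PT array and stays at 25.4 to 32.4 elsewhere.

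Other regions were higher with daidzein in both pairs. At chr2:119697845-119719245_F 3 of 4 probes were read, with signals of 111, 160, 129 and 173 for the first, 59.7, 131, 93.9 and 174 for the second and 174, 388, 313 and 646 for the third. The daidzein array was above PBS, and daidzein+PT above PT, for each of them, and the region mean was 0.81 and 1.0. The remaining probe (chr2:119703618-119703677), not above background on any array, carries 38 bases, in capitals, that are the reverse complement of part of the Fabp5 probe; Fabp5 is a fatty acid binding protein made by adipocytes and macrophages and lies on chromosome 3.
chr2:119697845-119719245_F, unread probe: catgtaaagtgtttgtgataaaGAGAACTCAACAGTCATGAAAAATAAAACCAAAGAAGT
The Fabp5 probe gave 21704, 46946, 34051 and 76964, or 0.99 and 1.39 for daidzein and 0.48 and 0.89 for PT, and the region gave 0.40 and 0.59 for PT. The nearest named gene, Tyro3, a receptor tyrosine kinase 54027 bases away, gave -0.25 and -0.00 for daidzein.

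At chr17:80133213-80144417_F 2 of 3 probes were read, with 37.3, 84.3, 42.6 and 103 and with 38.2, 60.8, 49.6 and 85.4; the latter shares 25 or more bases with the probe named CJ221686. Both probes were higher on each daidzein array than on its partner, and the region gave 0.80 and 1.24. Its neighbour Cyp1b1, a cytochrome P450 at 26607 bases on the other strand, gave -0.01 and -0.11. At chr16:29907604-29946602_R the 2 read probes gave 22.6, 43.1, 25.3 and 44.7 and 21.2, 40.3, 21.5 and 40.6. The third probe was above background on the daidzein arrays only, with 24.0 and 23.3 against 14.1 and 13.9. The region gave 0.80 and 1.08 for daidzein and -0.08 and 0.20 for PT. The overlapping chr16:29942664-29948289_R, with 2 read probes, gave only 0.08 and 0.22 for daidzein.

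The remaining regions of this kind rest on 1 read probe. For chr14:103746051-103840199_F it gave 23.4, 60.3, 36.5 and 81.8, or 1.24 and 1.38, the second region at 2-fold in both daidzein pairs, and a second probe was read on 3 arrays with 17.2, 44.4, 16.4 (not above background) and 80.0. The overlapping chr14:103751075-103769725_F, with 3 read probes, gave 0.52 and 0.71. The single probe of chr3:131153358-131154061_F gave 24.6, 51.1, 36.0 and 56.9, or 0.93 and 0.88. It lies inside chr3:131128972-131163308_F, whose 4 read probes gave 0.66 and 0.68. Sgms2, a sphingomyelin synthase 127428 bases away on the other strand, gave 1.08 and 0.85. For chr7:4828654-4843713_F the probe gave 115, 229, 149 and 229, or 0.86 and 0.84, and the larger chr7:4827340-4863315_F gave 0.43 and 0.86 over 5 read probes, each higher in both pairs. For chr15:92197603-92208534_F it gave 57.8, 108, 79.1 and 119, or 0.77 and 0.81. In all 4 cases both arrays with daidzein were above both arrays without it.

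Several brighter regions differed less but over every probe. On both strands of chr5:35975265-35982561 all 4 F and all 4 R probes were read. The pair printed here overlaps by 50 bases on opposite strands, in capitals.
F probe, chr5:35977053-35977112: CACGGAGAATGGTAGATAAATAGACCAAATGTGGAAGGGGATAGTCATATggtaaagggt
R probe, chr5:35977043-35977102: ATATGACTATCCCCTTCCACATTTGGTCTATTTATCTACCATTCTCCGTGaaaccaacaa
This F probe gave 139, 241, 187 and 252 and this R probe 3384, 4607, 3390 and 5719. The F mean was 0.65 and 0.80 for daidzein, and the R mean was 0.19 and 0.84. The probes within each letter lay close together, with an SD between probes of 0.06 for F and 0.09 for R. Acox3, a peroxisomal acyl-CoA oxidase 18991 bases away, gave 0.13 and 0.34. At chr6:122741562-122743423_R the mean signal of 3 probes was 6238, 9405, 7496 and 11286. The region gave 0.46 and 0.84 for daidzein with an SD between probes of 0.03. One of its probes shares 25 or more bases with a probe of Uck1, a uridine-cytidine kinase.

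**Figure D4:**
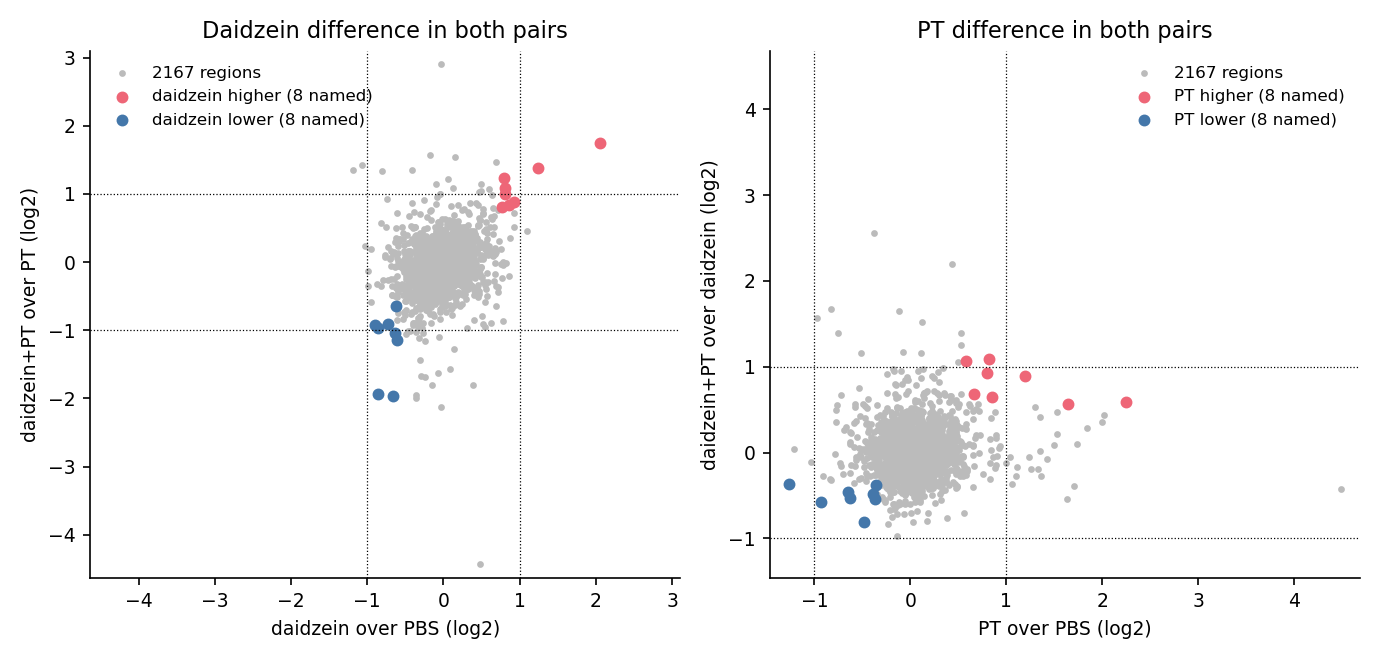
Log2 difference of each of the 2167 regions in the first pair against the second pair, for daidzein (left) and PT (right), with dotted lines at 2-fold. Coloured points are the regions named as higher or lower in both pairs. One region stands far out for daidzein at 2.06 and 1.75, and the 2-fold points of the PT panel are at 2-fold in 1 pair only.

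Of the 8 regions ranked lowest with daidzein by the smaller pair difference, 2 had several read probes. One is on chromosome 1, where 5 F regions that do not overlap lie between 139795171 and 139857204, and all 5 were lower in both daidzein pairs; this group was picked out after its values were seen. From left to right the pair differences were -0.50 and -0.78, -0.63 and -1.05, -0.33 and -0.96, -0.60 and -0.85, and -0.40 and -0.89. In each region the difference was larger in the pair with PT. The brightest, chr1:139822286-139822985_F, had 3 probes at 294, 252, 412 and 175; 436, 368, 598 and 269; and 669, 609, 953 and 437. All 3 probes were highest on the PT array and lowest on daidzein+PT. The large region chr1:139713316-139913366_F that covers all 5 has 1 read probe, with 0.04 and -0.19. The nearest named gene is Ptprc, the leukocyte antigen CD45, on the other strand 138098 bases from the brightest region; it was below background on all 4 arrays. The probes of the second region are printed because the last of them holds AATAAA, marked in capitals, 2 times.
chr1:139806645-139809498_F, probe 1: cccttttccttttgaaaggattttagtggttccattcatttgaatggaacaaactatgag
chr1:139806645-139809498_F, probe 2: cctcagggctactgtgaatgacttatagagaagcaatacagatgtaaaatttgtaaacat
chr1:139806645-139809498_F, probe 3: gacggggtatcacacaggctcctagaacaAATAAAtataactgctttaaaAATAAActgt
Probe 3 gave 65.9, 43.7, 83.6 and 23.5, probe 2 gave 75.6, 56.3, 85.2 and 52.8, and probe 1 gave 22.7, 70.9, 25.1 and 9.48. Probe 1 was highest on the daidzein array, unlike the other probes, and was not above background on daidzein+PT.

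The other was chr18:70400082-70404236_R, where the 3 probes gave 303, 244, 301 and 133; 301, 162, 304 and 147; and 229, 105, 215 and 95.5. Each probe was lower on both daidzein arrays than on both arrays without it, and the region gave -0.90 and -0.92. The first probe has the same sequence as the probe of 2310002L13Rik, an uncharacterised RIKEN transcript, which gave 305, 168, 312 and 130.

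The other regions named as lower rest on 1 read probe. For chr6:134879009-134880130_F it gave 67.6, 40.5, 94.4 and 41.5, or -0.87 and -0.97. Cdkn1b, an inhibitor of cyclin-dependent kinases 3526 bases away on the same strand, gave -0.32 and -0.25. For chr6:126766225-126771309_F it gave 93.0, 61.2, 105 and 48.0, or -0.73 and -0.91, while Ndufa9, a subunit of respiratory complex I only 687 bases away on the other strand, gave 0.40 and 0.69. For chr11:119250824-119286324_R it gave 68.3, 48.3, 59.7 and 32.9 and for chr3:68867193-68876128_R 44.1, 31.5, 53.8 and 21.1. Kpna4, an importin 64 bases from the latter on the same strand, gave 0.06 and 0.04. In these 4 regions both daidzein arrays lay below both arrays without daidzein. The other two regions named by the rule, chr8:40257009-40258777_F and chr6:82608223-82669023_F, gave 32.1, 19.3, 112 and 25.4 and 40.6, 28.0, 132 and 29.0. Both are high on the PT array alone, so their difference in the pair with PT (-1.93 and -1.97) rests on that 1 array.

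PT went with higher values over several probes at chr1:135956616-135957485_R. Its 3 probes gave 18.2, 23.5, 26.0 and 48.2; 37.3, 59.96, 64.4 and 124; and 33.3, 71.5, 63.9 and 108. PBS was lowest and daidzein+PT highest for each probe, and the region gave 0.58 and 1.07 for PT and 0.59 and 1.08 for daidzein. The nearest gene, Fmod, which encodes the matrix protein fibromodulin, gave -0.04 and -0.10 for PT. At chr1:183951156-183986156_F 1 of 5 probes was read, with 160, 173, 316 and 328, so that both PT arrays lay above both arrays without PT by 0.82 and 1.096, and the daidzein pairs gave -0.01 and 0.27. At chr2:132079092-132086642_F, 4038 bases from Pcna (the sliding clamp of DNA replication), the read probe gave 56.7, 91.3, 101 and 130, or 0.66 and 0.69, and Pcna gave -0.07 and -0.00. The overlapping chr2:132079092-132087069_F, with 1 read probe, gave only 0.15 and 0.13 for PT. At chr10:24269165-24276690_F the read probe gave 26.3, 54.7, 53.4 and 75.9. At chr4:147105275-147171025_F the 2 read probes disagreed, with 23.3, 19.9, 73.7 and 51.0 against 16.5, 20.8, 19.9 and 23.2. At chr5:144519149-144527843_F the read probe gave 31.9, 31.5, 170 and 42.1, which is high on the PT array alone as in chr8:40257009-40258777_F above, and the second probe, which shares 25 or more bases with a probe of D130017N08Rik, gave 24.9, 27.2, 23.7 and 14.4.

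PT went with lower values at chr11:119254413-119296960_F, which holds a probe of Rnf213, a large ubiquitin ligase, on its strand. The 3 probes gave 228, 173, 154 and 116; 213, 145, 164 and 86.1; and 346, 243, 253 and 141. PBS was highest and daidzein+PT lowest for each, with -0.63 and -0.53 for PT and -0.62 and -0.51 for daidzein. In the additive limma fit all 3 probes were called lower with PT (adjusted p 0.0111, 0.0151 and 0.000868). Rnf213 gave -0.22 and -0.28 for PT. At chr8:129102060-129109035_R, 3359 bases from the corepressor gene Irf2bp2, all 4 probes were lower in both PT pairs, with a mean of -0.39 and -0.48, and none was called by the fit. Irf2bp2 gave -0.01 and 0.00. The single read probe of chr8:83218278-83223553_R gave 58.7, 33.3, 34.5 and 19.8, while its other 2 probes were above background on the PT array alone, at 151 and 55.9. The remaining regions had 1 read probe each. That of chr5:123582742-123588117_F gave 32.1, 40.2, 25.7 and 20.4 (-0.49 and -0.81), that of chr6:120670699-120677449_F 36.3, 40.2, 25.9 and 25.9 (-0.65 and -0.46), and that of chr2:77807600-77836075_R 45.0, 41.3, 39.1 and 25.2 (-0.37 and -0.54). The 1 probe of chr10:96103732-96103867_F gave 48.8, 41.1, 22.9 and 28.2 (-1.26 and -0.37), and a region 5109 bases away with 3 read probes gave -0.29 and -0.36. The last, chr11:119250824-119286324_R, gave -0.36 and -0.38.

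Strands of 1 interval also parted, though at the largest gaps at least 1 letter always rested on 1 read probe. In the 4 intervals with the largest gap, the R region of chr13:94182877-94203852 had 1 read probe at 25.5, 21.6, 116 and 25.9 while its F region, with 3 read probes, gave -0.04 and -0.04 for daidzein. That R probe is high on the PT array alone. Overlapping R regions gave 0.07 and 0.19 (chr13:94182877-94203935_R, 4 read probes), 0.16 and -0.06 (chr13:94200051-94200598_R, 3) and -0.11 and 0.04 (chr13:94190118-94190496_R, 1). With unread probes included, R gave -0.01 and -0.46 and F gave -0.06 and 0.04. At chr7:4827340-4863315, which holds an Isoc2a probe (0.59 and 0.17) on the F strand, F gave 0.43 and 0.86 and R gave -0.24 and -0.56. The R value rests on 1 of 10 probes. With unread probes included, F gave 0.54 and 0.62 and R gave 0.48 and 0.46. At chr14:78214602-78226287, which holds Dnajc15 (a mitochondrial co-chaperone, itself 0.44 and 0.93) on the R strand, F gave 0.49 and 1.15 and R gave -0.14 and -0.12. Each letter there has 1 read probe, and that of F shares 25 or more bases with the Dnajc15 probe in reverse complement. The overlapping chr14:78214602-78225827, also with 1 read probe per letter, gave -0.18 and 0.15 under F and -0.59 and -0.34 under R. At chr3:68867193-68876128 F gave 0.06 and -0.05 and R gave -0.61 and -1.14. Among intervals where at least 1 letter differed 1.5-fold or more with daidzein, the 4 smallest gaps were all above the median of 0.15 over the 359 intervals. F and R had the same sign in these 4. The choice fixes this in advance, because 1 letter was at 1.5-fold or more and each gap was smaller than that. There, chr11:119250824-119286324 gave -0.22 and -0.47 under F and -0.63 and -0.65 under R, and chr10:8606683-8665783 gave -0.05 and -0.83 under F and -0.33 and -0.86 under R. At chr1:175654606-175672031 F gave -0.32 and -1.12 and R -0.23 and -0.36, but the F value holds 1 probe at 28.8, 21.0, 157 and 19.4.

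Probes that stood out on 1 array, a group picked out after values were seen, were seldom matched by others of their region. Of the 4431 region probes read on all 4 arrays, 34 were at least 2-fold higher on the PT array than on each of the other 3, which is 0.767% against 0.194% of the other probes. These 34 probes had 48 read partners in their regions, and 0 of the 48 showed the same departure; the median partner lay 0.15 log2 above the median of the other arrays. Daidzein+PT was the high array for 29 region probes (0.654%, others 0.555%), and 2 of 44 partners showed it too. PBS was the high array for 5 (0.113%, others 0.00949%) and daidzein for 3 (0.0677%, others 0.0474%), with 0 of 19 and 0 of 11 partners. PBS was the low array for 3 probes (0.0677%, others 0.261%), and 2 of their 3 partners showed it too. These 2 are the read probes of chr2:136327645-136341251_F, each counted as the partner of the other. For every array, a partner with the departure is itself among the probes counted as standing out. The median signal of the 34 probes was 35.5. Among the 643 regions with 3 or more read probes, the largest spread between probes had the same form: in chr12:52886460-52888921_R 1 of 3 probes gave 16.6, 23.2, 26.3 and 125, and in chr15:96032592-96116907_F 1 of 3 gave 32.4, 25.4, 168 and 26.9. In chr8:119732348-119749198_R 1 of 4 read probes gave 16.6, 28.7, 34.2 and 102.

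**Figure D5:**
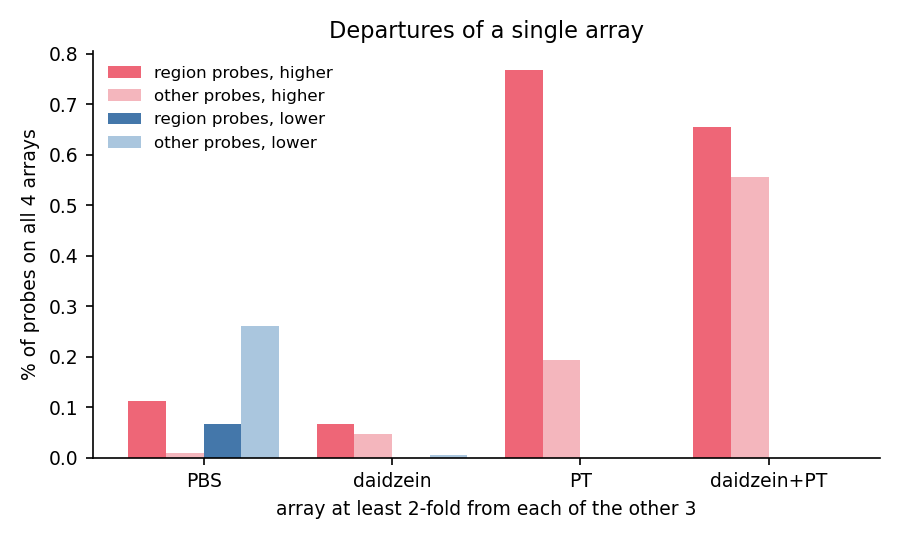
Percent of probes read on all 4 arrays whose value on the named array was at least 2-fold above (red) or below (blue) each of the other 3, for region probes (dark) and all other probes (pale). The PT array has 0.767% of region probes high against 0.194% of other probes, and the PBS array has 0.261% of other probes low.

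A further set of probes was read on both PT arrays and on neither array without PT: 58 region probes (0.372%) and 78 other probes (0.195%). Being read on only 2 arrays was also more frequent among region probes for other combinations: 1.01% against 0.514% for the arrays without PT, 0.628% against 0.372% for those without daidzein, 0.602% against 0.314% for daidzein and PT, and 0.179% against 0.0823% for PBS and daidzein+PT. For the daidzein arrays the shares were 0.237% and 0.299%. Their difference has a lower bound only, taken from the mean of both PT arrays against the mean, on the other 2 arrays, of the probe's own signal or the dimmest read signal of the array, whichever was higher. For 11 of the 58 region probes, each in a region of its own, it was at least 4-fold, and 21 of the 78 other probes reached the same bound. The array has 15604 region probes and 40077 other probes in all. Among probes read with daidzein only, 0 of 37 region probes and 8 of 120 other probes reached it. Without PT only it was 0 of 157 and 1 of 206, and without daidzein only 1 of 98 and 0 of 149. None of the 33 other probes in these 11 regions had the pattern. The probes printed here have the highest bounds among those whose sequence is given and were chosen after their values were seen; no letters are marked.
chr2:77152807-77155092_R: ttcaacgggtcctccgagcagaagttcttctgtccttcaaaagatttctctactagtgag
chr3:121356775-121357347_R: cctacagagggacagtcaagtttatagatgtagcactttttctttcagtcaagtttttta
chr11:69184157-69201732_F: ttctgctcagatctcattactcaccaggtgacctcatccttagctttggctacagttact
The first gave 3.12, 3.37, 193 and 68.6 and was at least 7.68-fold higher with PT. The second gave 3.11, 3.91, 130 and 70.1, at least 6.35-fold, and the third 13.8, 11.9, 77.0 and 113, at least 6.21-fold. Each value comes from 1 probe, and slide row, if the file names give it, moves with PT in all of them.

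Further probes of this kind, with no sequence shown, were 1 of chr18:63226635-63227111_R, at 3.50, 3.92, 146 and 81.0 (at least 7.25-fold), and 1 of chr13:94069868-94070007_R, at 4.69, 4.60, 90.5 and 76.2 (at least 5.53-fold). The single probe read without daidzein only was in chr11:70196232-70203307_R, with 325, 19.3, 32.8 and 18.9 (at least 5.24-fold); of the arrays without daidzein it was high on PBS alone.

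With every probe of a region considered, no region was read over 2 or more probes on the daidzein arrays only, on the arrays without daidzein only, or on all treated arrays but not PBS. Read on the PBS array alone were 2 regions with 2 probes each, chr2:104590593-104606218_F (22.8 and 19.7 on PBS, 3.69 to 15.9 elsewhere) and chr2:181022680-181027214_R (21.0 and 18.4 on PBS, 4.26 to 17.6 elsewhere). These signals lie just above the dimmest read signal of that array, 14.3. Where 1 probe sufficed, the number of regions read was 22 on all treated arrays but not PBS, 19 with daidzein only, 31 without daidzein only and 77 on PBS only. These counts were not compared with the other targets of the array.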

How the data were processed

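Each array's scanner output holds a spot intensity that Agilent Feature Extraction had corrected for background (version 10.7.1.1 per the file headers, 9.5.1.1 per the submitters' processing notes), with flags per spot. The deposited value table gives an intensity per probe, and its sorted columns differ by at most 0.0474%; it served as an alternative. Outlier spots were removed, log2 signals were centred on each array's 75th percentile, spots of a probe were averaged, and a region took the mean over probes well above background. Positions are mm9, as deposited. The additive model used limma 3.58.1 in R 4.3.3 (lmFit, eBayes with trend). Tables used Python 3.11.15. The procedure was tested on simulated data.

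Named regions are the 8 highest and 8 lowest per treatment by the smaller of the 2 pair differences, the 4 largest and 4 smallest F and R gaps among intervals with a daidzein difference of 1.5-fold in a letter, the 3 largest and 3 smallest SDs among regions of 3 or more read probes with 1.5-fold in a probe, regions on or off over 2 probes, and nearest genes. Members and lists were chosen with earlier results of these data known. Arrays limit precision by their number, 1 per group. Alternatives were normexp background correction, quantile normalization, the deposited table, the brightest probe, no filter, 2 or more probes, another detection flag and no trend.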

Additional observations from a re-analysis of the deposited data

How the results depend on the processing

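With 1 array per group, counts of 2-fold regions moved with the treatment of dim signals. The same counts over all targets are not given for these alternatives, so regions are not set against the other targets here. Normexp background correction (offset 50) gave 5 higher and 0 lower for PT over PBS, 7 and 0 for daidzein+PT over daidzein, 2 and 1 for daidzein over PBS, 4 and 4 for daidzein+PT over PT, 5 and 0 for daidzein+PT over PBS, and 1 region higher in both daidzein pairs. Without the filter on dim probes the same counts were 206 and 40, 217 and 62, 104 and 52, 143 and 139, and 249 and 48, with 8 higher and 6 lower in both daidzein pairs and 29 and 5 in both PT pairs. With 2 or more read probes they were 11 and 2, 5 and 0, 2 higher, 10 and 7, and 10 and 2, with 1 higher in both daidzein pairs. The brightest probe gave 40 higher and 3 lower for daidzein+PT over daidzein, 8 higher for daidzein over PBS, 4 in both daidzein pairs and 1 in both PT pairs. Quantile normalization and the deposited table both gave 9 lower for PT over PBS and 2 for daidzein+PT over daidzein, and 16 and 15 for daidzein+PT over PBS. Only regions with no named gene probe on their strand and no shared probe sequence, an alternative chosen after seeing the data, left 5 lower for daidzein+PT over PBS and 1 higher in both daidzein pairs.

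The flag for positive and significant signal raised the share of read region probes to 61.8%, 62.8%, 61.7% and 59.0% (PBS, daidzein, PT, daidzein+PT) and intervals with both letters to 646; needing 2 probes lowered these to 139 and read regions to 1105. The median F and R gap was 0.082 with normexp, 0.159 with the brightest probe and 0.237 without the filter. The SD between probes was 0.069 and 0.338, and the distance to the nearest gene 0.109 and 0.249, with normexp and without the filter. Additive calls for PT were 24 higher and 4 lower with normexp, 20 and 2 with quantile normalization and 0 and 0 without the trend. For daidzein they were 72 and 100, 73 and 106, and 0 and 0. Counts over all probes under normexp and quantile normalization are not given. At an unadjusted p under 0.05, limma without the trend had 298 and 260 of 5346 region probes for PT and 333 and 499 for daidzein. Over all 27830 probes it had 1228 and 765 for PT and 2242 and 2260 for daidzein. The causes were not tested. All 32 named directions in both pairs held under normexp, quantile normalization, the deposited table and the brightest probe; without the filter 3 of 8 lower with daidzein, 6 of 8 higher and 5 of 8 lower with PT did, and 8 of 8 higher with daidzein. Names with the lincRNA prefix (0 on the array) and the brightest probe for the SD between probes gave no value and were not run. No paired analysis was possible because each group has 1 array.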
